A study of Mus musculus with 12 samples.

Results

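DNA repair genes were examined in the thymus of mice with TEL-JAK2 leukemia and of wild-type mice. The set was fixed by name and holds 36 genes of mismatch repair, homologous recombination, end joining, base excision, nucleotide excision, damage signalling and related routes. Of these, 33 had at least 1 probe set annotated to that gene alone, among 8251 genes measured in all. Xrcc4, Lig4 and Fanca were not analysed here. Where a gene had several probe sets, the brightest on average across the 12 arrays stood for it, so the groups played no part in the choice. The probe sets chosen for Parp1, Rad23b, Mre11a and Ung have names that mark possible cross-hybridization.

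RNA of thymus cell suspensions was hybridised to Affymetrix 3' expression arrays. The leukemia group comprised 8 arrays of leukemic cells from terminally ill TEL-JAK2 mice, which carry a fusion of the transcription factor TEL (Etv6) with the tyrosine kinase Jak2. The comparison group comprised 4 arrays of thymocytes from wild-type mice aged 2 months. Both groups were of strain C57Bl/6. The sources used here do not give the age of the leukemic mice, the promoter of TEL-JAK2 or whether each array came from a separate mouse. The p-values therefore reflect only how these samples varied, which may be technical. Values are log2 intensities, and their precision is limited by the number of arrays.

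Of 11 thymocyte markers measured, 3 fell and 8 did not pass the test. The CD3 chain gene Cd3e stood at 10.98 ± 0.34 in leukemias and 11.18 ± 0.073 in thymocyte arrays (mean ± SD, n = 8 and n = 4). Thy1 stood at 11.86 ± 0.31 and 12.17 ± 0.090 in the same order. Those that fell were Cd4 (-1.89 on the log2 scale), Rag2 (-2.39) and Ptcra (-0.96). The thymocyte score, the mean log2 value of these markers after centring each gene, was lowest in leukemias 1 and 7 (-1.48 and -0.91), against -0.31 to 0.24 in the other leukemias and 0.60 to 0.70 in thymocyte arrays. All 15 macrophage markers had a higher mean in leukemias (median difference 0.40, up to 1.17 for Lyz2, lysozyme), and none passed, with 4 near the level of control probe sets in leukemias and 5 in thymocyte arrays, and their log2 summed intensity ran from 10.44 to 12.69 in leukemias and from 10.50 to 10.91 in thymocyte arrays. In such bulk samples, fewer cells of a type and less RNA per cell cannot be told apart.

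Cells keep separate repair routes for different lesions. Mismatch repair corrects copying errors, base excision removes small damaged bases, and nucleotide excision cuts out bulky adducts. Breaks of both strands are rejoined by end joining, which developing thymocytes also need to assemble their antigen receptor genes, or are repaired from the sister copy by homologous recombination, which works in S and G2 phase. Kinases such as Atm and Chek1 signal damage and hold the cell cycle.

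Most of these genes showed small differences between leukemia and normal thymocytes. Brca1, Chek1 and Ercc2 fell, no member rose, and 30 did not pass the test (limma, Benjamini-Hochberg adjusted p under 0.05 over all genes). The 3 that fell make up 9.09% of the members. Of all genes, 11.9% fell and 5.41% rose, 17.3% in either direction. By the unadjusted p, 8 of 33 members lay under 0.05, against 2344 of all 8251 genes. The median log2 difference, leukemia minus thymocytes, was -0.069 over the members and 0.0037 over all genes, and 22 of the 33 members had a value below 0, against 49.1% of all genes. For 23 of 33 members the 95% interval of the difference lay within 0.5 log2 units of 0, against 5780 of 8251 genes. The genes that fell were also the only members whose leukemia values all lay below every thymocyte array, as held for 8.11% of all genes. No member lay above in every leukemia (4.21% of all genes).

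**Figure D1:**
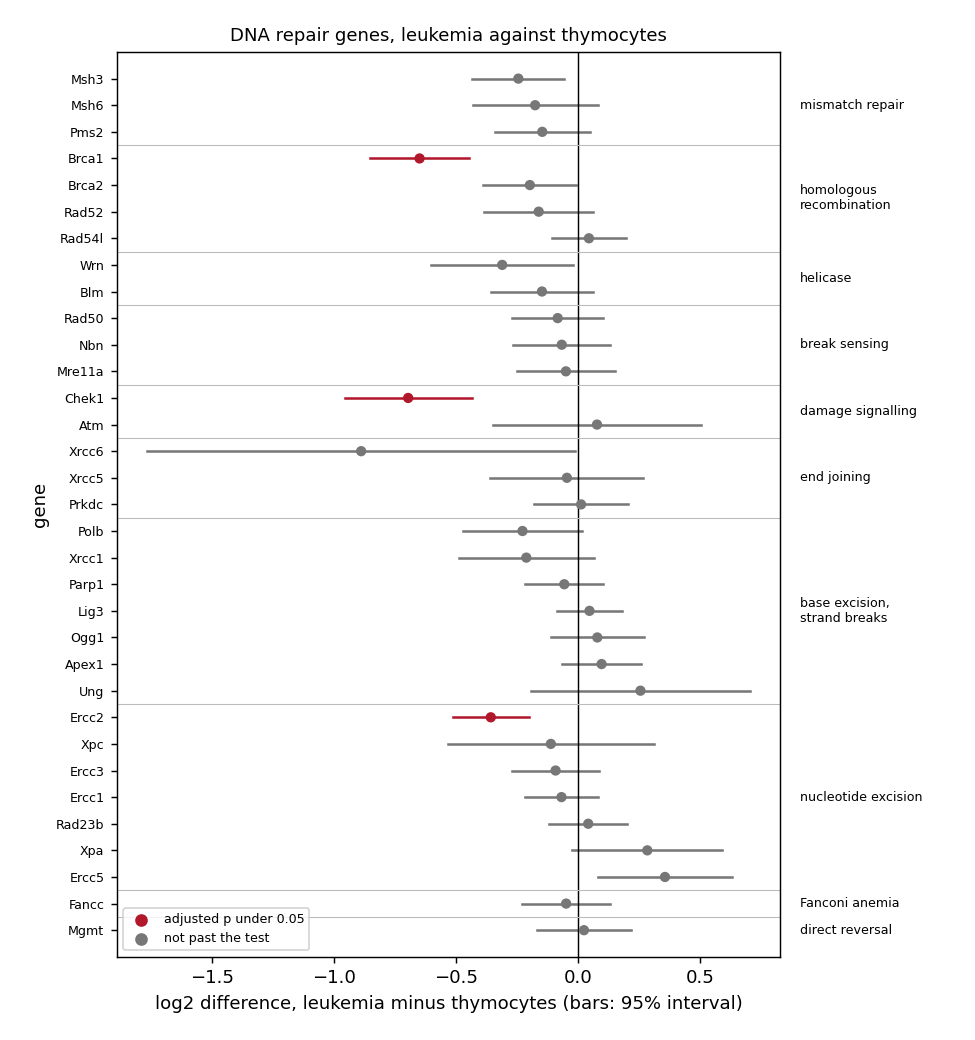
Log2 difference of 33 DNA repair genes, leukemia (n = 8) minus thymocytes (n = 4), with 95% intervals from limma, grouped by repair route; red marks an adjusted p under 0.05. Brca1 (-0.65), Chek1 (-0.70) and Ercc2 (-0.36) are marked, and Xrcc6 has the widest interval (-1.77 to -0.013).

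The promoters of the 3 genes that fell, and of Xrcc6, the most variable member, are shown for the motifs they hold. Each line gives the 250 bases upstream of a start site from RefSeq (GRCm38.p6), read 5′ to 3′ on the gene's strand. Capitals mark matches to motifs of cell cycle and general promoter factors: E2F (GCGGGAA, with GCGCGAA and with GCGCCAA as its variants), the CHR element (TTTGAA, with TTCGAA as its variant), the CCAAT box (CCAAT) and the GC box (GGGCGG), searched on both strands.
Brca1 (chr11:101551956-101552205, minus strand): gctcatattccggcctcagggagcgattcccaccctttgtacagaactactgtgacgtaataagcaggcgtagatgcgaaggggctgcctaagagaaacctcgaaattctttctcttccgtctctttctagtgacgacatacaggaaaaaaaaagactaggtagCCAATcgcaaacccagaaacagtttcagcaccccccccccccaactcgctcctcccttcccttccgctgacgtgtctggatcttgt
Chek1 (chr9:36726659-36726908, minus strand): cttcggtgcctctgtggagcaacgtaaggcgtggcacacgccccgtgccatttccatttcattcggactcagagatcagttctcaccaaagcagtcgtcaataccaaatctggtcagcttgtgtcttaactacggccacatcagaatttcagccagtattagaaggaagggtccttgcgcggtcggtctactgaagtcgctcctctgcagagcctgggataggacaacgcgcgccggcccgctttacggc
Ercc2 (chr7:19381767-19382016, plus strand): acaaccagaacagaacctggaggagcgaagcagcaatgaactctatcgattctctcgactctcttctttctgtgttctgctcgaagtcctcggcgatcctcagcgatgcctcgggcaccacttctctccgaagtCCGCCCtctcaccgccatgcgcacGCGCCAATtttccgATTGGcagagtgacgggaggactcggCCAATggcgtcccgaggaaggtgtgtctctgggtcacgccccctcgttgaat
Xrcc6 (chr15:82016119-82016368, plus strand): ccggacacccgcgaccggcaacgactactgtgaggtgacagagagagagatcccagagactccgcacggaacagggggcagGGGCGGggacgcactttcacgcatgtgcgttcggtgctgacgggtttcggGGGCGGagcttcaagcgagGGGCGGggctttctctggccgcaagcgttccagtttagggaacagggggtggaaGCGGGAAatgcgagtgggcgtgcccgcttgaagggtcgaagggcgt

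The Brca1 window held 1 CCAAT box, 86 to 82 bases upstream of the start site. The Chek1 window held no match to any of these motifs. The Ercc2 window held 3 CCAAT boxes, 1 GC box and 1 E2F match, which overlaps a CCAAT box. The Xrcc6 window held 3 GC boxes and 1 E2F match. The promoter sequences used here lacked Rad50, Prkdc, Xpc, Nbn, Wrn, Polb and, with chromosome 18 left out, Ercc3. They covered 26 members in 28 windows. E2F letters occurred in 8 of these windows (28.6%, against 6.69% of 32851 windows of all genes), CCAAT in 17 (60.7% against 33.8%), the GC box in 18 (64.3% against 32.7%) and CHR letters in 2 (7.14% against 17.1%). The windows of all genes include those of genes that make no protein, and a match is a description of letters only.

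Brca1 organises homologous recombination at broken DNA and is made mainly in dividing cells. Its level ran from 4.23 to 4.67 with a median of 4.53 in leukemias, and was 5.17, 5.15, 4.97 and 5.21 in the 4 thymocyte arrays. Every leukemia was below every thymocyte array. The log2 difference was -0.65 (SE 0.094, adjusted p = 0.000385). No fold is given, because leukemias and thymocytes both averaged less than the control level, taken as the 95th percentile of 19 probe sets for non-mouse transcripts (5.37 in leukemias and 5.34 in thymocyte arrays).

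Chek1 is the kinase that acts below Atr to restrain the cell cycle when replication stalls. Its level ran from 5.25 to 5.86 with a median of 5.49 in leukemias and was 6.37, 6.37, 6.03 and 6.16 in thymocyte arrays, and the groups did not overlap. The difference was -0.70 (SE 0.12, adjusted p = 0.00134), a 1.62-fold decrease. Leukemias 5 and 7 had the lowest values of both Chek1 (5.27 and 5.25) and Brca1 (4.26 and 4.23). The same arrays had the highest macrophage score (0.93 and 1.02, against -0.46 to 0.57 in the other leukemias and -0.43 to -0.17 in thymocyte arrays) and the highest score of 7 B cell markers (0.38 and 0.57, against -0.30 to 0.25 and -0.24 to -0.22), none of which passed. Leukemia 5 also had the lowest scores of the mitosis and DNA replication genes described below (-0.83 and -0.47). Leukemia 7 had -0.16 and -0.11 for these, and the lowest thymocyte score after leukemia 1 (-0.91). Leukemia 3, next in the macrophage and B cell scores (0.57 and 0.25), had Brca1 at 4.63 and Chek1 at 5.71. Both values lay above the leukemia medians (4.53 and 5.49). The part of other cell types in the Brca1 and Chek1 values was not tested. In a fit that includes the macrophage score, the difference was -0.57 (adjusted p = 0.00151) for Brca1 and -0.63 (adjusted p = 0.00622) for Chek1.

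Ercc2, the XPD helicase of the TFIIH complex, opens DNA in nucleotide excision and in transcription. It ran from 7.12 to 7.38 with a median of 7.28 in leukemias and was 7.65, 7.65, 7.72 and 7.48 in thymocyte arrays, without overlap. The difference was -0.36 (SE 0.072, adjusted p = 0.00355), a 1.28-fold decrease. A further probe set of Ercc2 gave -0.19, with an adjusted p of 0.0823 over all probe sets, and did not pass.

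**Figure D2:**
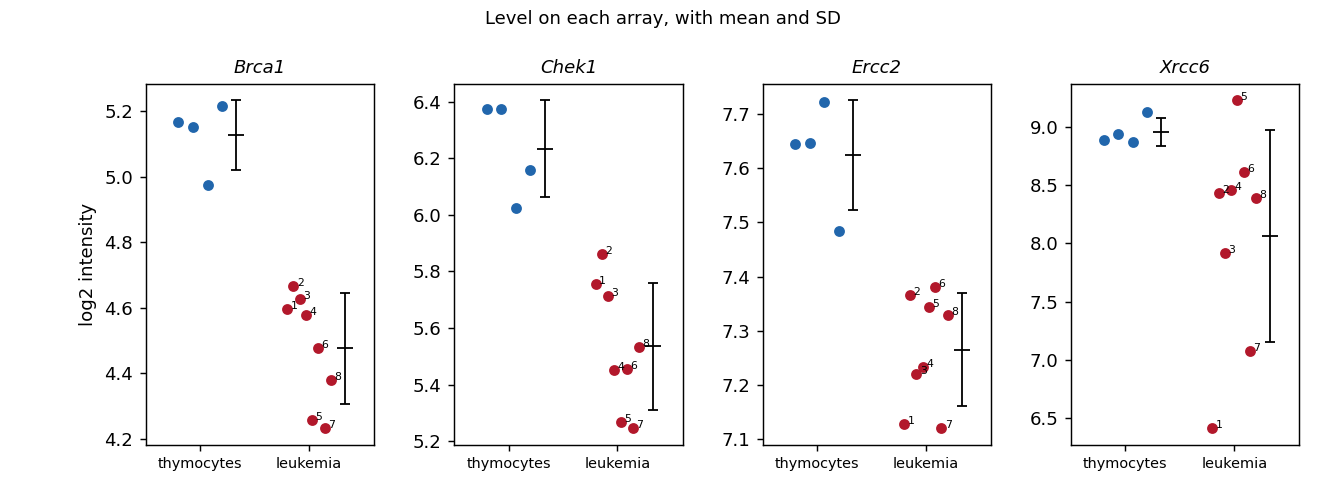
Log2 intensity of Brca1, Chek1, Ercc2 and Xrcc6 on each array (points; leukemias numbered), with mean and SD beside them. Every leukemia lies below every thymocyte array for the first 3 genes, whereas Xrcc6 ranges from 6.41 in leukemia 1 to 9.23 in leukemia 5.

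Genes of cell division also differed between the groups. Of 28 mitosis genes measured, 22 fell and 0 rose, and of 37 DNA replication genes 15 fell and 0 rose. The mitosis score ran from -0.83 to 0.16 in leukemias and from 0.35 to 0.77 in thymocyte arrays, and the replication score from -0.47 to 0.093 and from 0.10 to 0.42. With the mitosis score as a covariate the difference was -0.47 (adjusted p = 0.0561) for Brca1, -0.47 (adjusted p = 0.122) for Chek1 and -0.46 (adjusted p = 0.0274) for Ercc2. With the replication score these were -0.46 (adjusted p = 0.0334), -0.46 (adjusted p = 0.0879) and -0.43 (adjusted p = 0.0246). Chek1 thus passed with neither score, Brca1 with the replication score and Ercc2 with both. With the mitosis score Msh3, Msh6 and Xrcc6 fell too, and with the replication score Msh3 and Msh6. Neither score overlapped between the groups, so group and score cannot be fully told apart in these fits. Across the 8 leukemias, 0 of 33 members passed a correlation test with either score by Pearson's r or Spearman's rho (exact permutation tests, two-sided, Benjamini-Hochberg adjusted over 33 members). At an unadjusted p under 0.05 there were 5 by r and 4 by rho for the mitosis score, and 5 and 3 for the replication score. These correlations were run on the members alone, so the counts cannot be set beside a share of all genes. The smallest p for the replication score was that of Xrcc1 (r = 0.848, exact permutation p = 0.00702, adjusted 0.232; rho = 0.810, exact p = 0.0218, adjusted 0.392), where r was 0.675 once leukemias 4 and 5, whose scores lay farthest from the median, were left out. For the mitosis score it was that of Blm (r = 0.822, exact permutation p = 0.0151, adjusted 0.222), where r was 0.788 without leukemias 1 and 5. Atm ran the other way with both scores (r = -0.776 and -0.737). With the mitosis score r was positive for 15 members and negative for 18, and with the replication score for 17 and 16.

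Among the other genes of homologous recombination, none passed. Brca2, which acts in strand exchange at breaks, ran from 5.58 to 6.09 with a median of 5.74 in leukemias and was 5.84, 5.87, 6.07 and 6.05 in thymocyte arrays. Of the 8 leukemias, 7 lay below every thymocyte array and leukemia 1 lay above them, and the difference was -0.20 (SE 0.089, adjusted p = 0.158). Without leukemia 1 it was -0.25 (adjusted p = 0.027) and passed. Rad52, a strand-annealing protein, differed by -0.16 (SE 0.10, adjusted p = 0.344), with 6 leukemias below all thymocyte arrays and leukemia 4 above them at 6.87. Without leukemia 4 it was -0.22 (adjusted p = 0.0484). Rad54l, a motor protein of strand exchange, was near the control level throughout (4.13 ± 0.095 in leukemias and 4.09 ± 0.11 in thymocyte arrays, SD, n = 8 and n = 4).

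The RecQ helicases Blm and Wrn unwind recombination intermediates. Blm differed by -0.15 (SE 0.10, adjusted p = 0.355) and Wrn by -0.31 (SE 0.13, adjusted p = 0.144). Wrn ran from 6.37 to 7.17 with a median of 6.83 in leukemias against 7.16, 7.18, 7.21 and 6.97 in thymocyte arrays, and 5 of 8 leukemias lay below all of these. The groups overlapped for both genes.

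Mre11a, Rad50 and Nbn form the complex that first binds broken ends. Their differences were -0.051, -0.085 and -0.068, with 95% intervals of -0.25 to 0.15, -0.27 to 0.10 and -0.27 to 0.13. No member of the complex passed, and Nbn was near the control level throughout. Atm, the kinase this complex activates, differed by 0.077 (SE 0.20, adjusted p = 0.85) and is described further with the title numbers.

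End joining held the most variable member. Xrcc6 (Ku70), which with Xrcc5 (Ku80) caps broken ends, was at 6.41, 8.43, 7.91, 8.46, 9.23, 8.61, 7.08 and 8.39 in leukemias 1 to 8 and at 8.88, 8.94, 8.87 and 9.13 in thymocyte arrays. Of the leukemias, 7 lay below every thymocyte array and leukemia 5 lay above them. The SD was 0.91 in leukemias and 0.12 in thymocyte arrays, and 99.0% of all genes had a smaller SD over the leukemias. The difference of -0.89 (SE 0.41, adjusted p = 0.169) did not pass, although it was the largest of the members in size (interval -1.77 to -0.013). With single arrays left out it ranged from -1.06 to -0.65, the latter without leukemia 1, with adjusted p from 0.0762 to 0.288. It passed with array weights, at -0.75 (adjusted p = 0.0286), and with the mitosis score as a covariate, at -1.998 (adjusted p = 0.0431).

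The low Xrcc6 values were in leukemias 1 and 7, the arrays with the lowest thymocyte score. Dntt, the template-free polymerase of receptor gene assembly, is itself 1 of the 11 markers in that score, so its low values there are part of the score and no separate observation (7.53 and 8.30, against 9.999 to 11.12 in the other leukemias and 11.66 to 11.77 in thymocyte arrays). Gtf2h4, which is not in the score, was also lowest in leukemias 1 and 7 (7.21 and 7.44, against 8.05 to 10.14 and 10.25 to 10.56). Among the other members, so were Wrn (6.55 and 6.37), Xpc (6.31 and 5.97), Ercc2 (7.13 and 7.12, with 7.22 next in leukemia 3) and Ercc5 (6.72 and 6.60). These genes are listed for this order, and the share of all genes that are lowest in leukemias 1 and 7 was not counted. The titles of both leukemias also lack the number of 4 digits described below. The part of thymocyte stage in these values was not tested, and as leukemias 1 and 7 stand apart no correlation is given. Xrcc5 did not share the pattern, at 6.37 and 5.45 in leukemias 1 and 7, its highest and lowest leukemia values, with a difference of -0.047, adjusted p = 0.877. Prkdc, the catalytic kinase that Ku recruits, ran from 6.53 to 6.94 with a median of 6.80 in leukemias and was 6.93, 6.63, 6.69 and 6.75 in thymocyte arrays. Its difference was 0.011 (SE 0.090, adjusted p = 0.956), with an interval of -0.18 to 0.21.

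**Figure D3:**
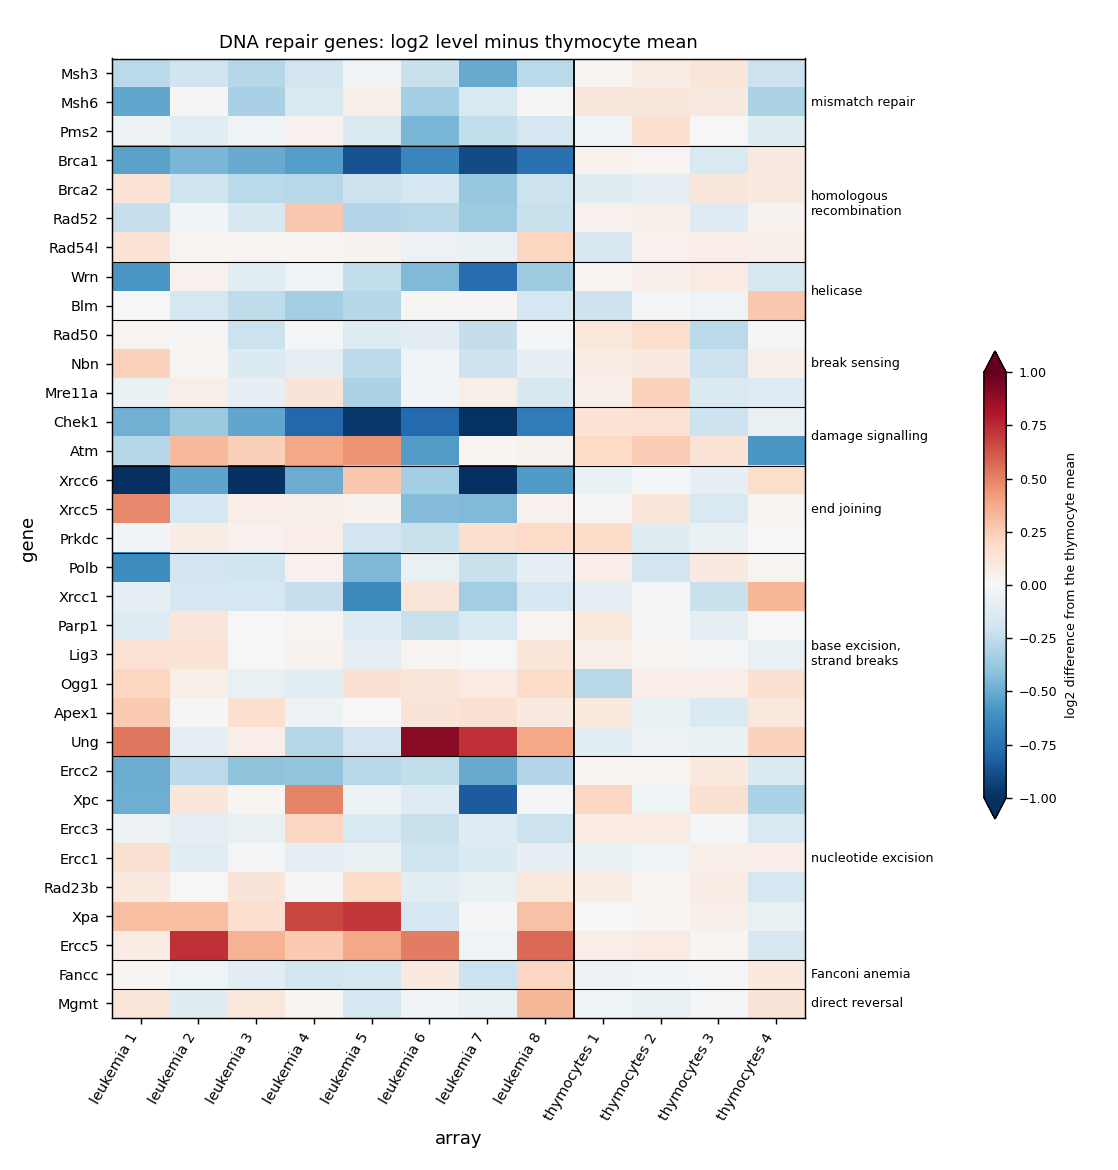
Log2 level of each member on each array minus the mean of the thymocyte arrays for that gene, by repair route; the colour scale ends at 1 and -1, and Xrcc6 in leukemias 1, 3 and 7 lies beyond its lower end. Rows for Brca1, Chek1 and Ercc2 are blue in every leukemia, and Ercc5 is near white in leukemias 1 and 7 and red in the other 6.

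Mismatch repair genes gave small negative values that did not pass. Msh3 and Msh6 recognise mispairs, and Pms2 acts after them in the cutting of the new strand. Msh3 ran from 6.71 to 7.19 with a median of 6.97 in leukemias and was 7.24, 7.29, 7.34 and 6.999 in thymocyte arrays, with 5 of 8 leukemias below all of these. Its difference was -0.25 (SE 0.087, adjusted p = 0.0725). Without leukemia 5 it was -0.28 (adjusted p = 0.0405), without thymocyte array 4 -0.32 (adjusted p = 0.0273). A further Msh3 probe set, near the control level throughout, gave 0.21, with an adjusted p of 0.0426 over all probe sets, so the probe sets disagree in sign. Msh6 differed by -0.18 (SE 0.12, adjusted p = 0.37) and Pms2 by -0.15 (SE 0.090, adjusted p = 0.317).

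None of the 7 base excision and strand break genes passed. Ung removes uracil from DNA, Ogg1 oxidised guanine, Apex1 cuts at the empty site, Polb fills it, and Xrcc1 with Lig3 seals the nick that Parp1 senses. Polb differed by -0.23 (SE 0.11, adjusted p = 0.207) and Xrcc1 by -0.21 (SE 0.13, adjusted p = 0.309). Xrcc1 was lowest in leukemia 5 (6.60), the leukemia with the lowest proliferation scores. A further Xrcc1 probe set, marked for cross-hybridization, did not show this order, with 6.798 in leukemia 5 and lower values in leukemias 3 and 4 (6.795 and 6.708), and its group difference was -0.025. Apex1 ran from 7.17 to 7.48 with a median of 7.33 in leukemias and was 7.32, 7.15, 7.07 and 7.33 in thymocyte arrays, and the difference was 0.10 (SE 0.075, adjusted p = 0.45). The values for Ogg1, Lig3 and Parp1 were 0.078, 0.046 and -0.058, with intervals of -0.11 to 0.27, -0.086 to 0.18 and -0.22 to 0.10. Ung had the highest value among these, 0.25 (SE 0.21, adjusted p = 0.469), and ran from 8.17 to 9.36 with a median of 8.68 in leukemias against 8.34, 8.40, 8.39 and 8.69 in thymocyte arrays, so the groups overlapped.

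In nucleotide excision only Ercc2 passed, of 7 genes. Ercc5 (XPG), which cuts on one side of the lesion, ran from 6.60 to 7.37 with a median of 7.01 in leukemias and was 6.71, 6.72, 6.66 and 6.48 in thymocyte arrays. Of the leukemias, 6 lay above every thymocyte array, with leukemias 1 and 7 (6.72 and 6.60) within their range. The difference was 0.36 (SE 0.13, adjusted p = 0.0748). It passed without leukemia 1, at 0.40 (adjusted p = 0.0454), and without leukemia 7, at 0.41 (adjusted p = 0.0225), whereas a further probe set, marked for cross-hybridization, gave -0.090, with an adjusted p of 0.693 over all probe sets.

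Xpa, which verifies the lesion, was close to the control level throughout. It ran from 4.38 to 5.26 with a median of 4.85 in leukemias and was 4.55, 4.58, 4.60 and 4.47 in thymocyte arrays, and the difference was 0.28 (SE 0.14, adjusted p = 0.217). Xpc and Rad23b recognise the distortion and differed by -0.11, adjusted p = 0.763, and 0.041, adjusted p = 0.774. Xpc varied widely among leukemias, from 5.97 in leukemia 7 to 7.30 in leukemia 4. Ercc3 (XPB), the other TFIIH helicase, differed by -0.093 and Ercc1, part of the second nuclease, by -0.069, with intervals of -0.27 to 0.085 and -0.22 to 0.079. Fancc, of the Fanconi anemia core complex for crosslinks, differed by -0.050 (interval -0.23 to 0.13). Mgmt, which takes alkyl groups off guanine, lay near the control level and differed by 0.023 (interval -0.17 to 0.22).

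Of the 33 members, 11 had 1 further probe set. Of these 11 further probe sets, 6 were near the control level in both groups and 1 passed, that of Msh3.

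Some members differed by the number in the array titles, at a share no higher than that of all genes. The titles of 7 arrays (4 leukemias and 3 thymocyte arrays) hold a number of 4 digits, and those of the other 5 (leukemias 1, 6, 7 and 8 and thymocyte array 4) do not. The sources used here do not say what the number stands for. In a fit with both group and title number, looked at after the values of Ung and Atm were seen, 5 of 33 members (15.2%) differed by title number, against 16.4% of all genes. Atm differed by 0.61 (SE 0.10, adjusted p = 0.00384), arrays with the number minus the others. Every array with it (6.71 to 7.02) lay above every other array (5.99 to 6.61). Ung showed the opposite order, -0.64 (SE 0.11, adjusted p = 0.00392), with 8.17 to 8.52 in arrays with the number and 8.69 to 9.36 in the others. A further Ung probe set, not marked for cross-hybridization, was at 7.07, 7.20, 6.91 and 7.20 in leukemias 1, 6, 7 and 8 and at 7.13, 7.09, 7.19 and 6.95 in leukemias 2 to 5, where the ranges overlap. Wrn (0.38), Xpc (0.49) and Blm (-0.26) also differed by title number, with overlapping ranges.

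With the title number as a block, Brca1, Chek1, Ercc2 and Blm fell and Ercc5 rose. The blocked differences were -0.64 (adjusted p = 0.000558), -0.68 (adjusted p = 0.00207), -0.34 (adjusted p = 0.00394), -0.22 (adjusted p = 0.0326) and 0.40 (adjusted p = 0.0397) in that order. Within arrays with the number, Brca1, Chek1 and Ercc2 differed by -0.57, -0.68 and -0.38 and passed. Within the others, with 1 thymocyte array, the values were -0.79, -0.66 and -0.24 and did not pass, in a fit that called 4 genes of 8251. Wrn differed by -0.14 and -0.37, Atm by 0.16 and 0.39, and Xrcc6 by -0.39 and -1.51, in the same order. By title number, in the fit with both group and title number, Xrcc6 differed by 0.58 (adjusted p = 0.316) and did not pass.

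**Figure D4:**
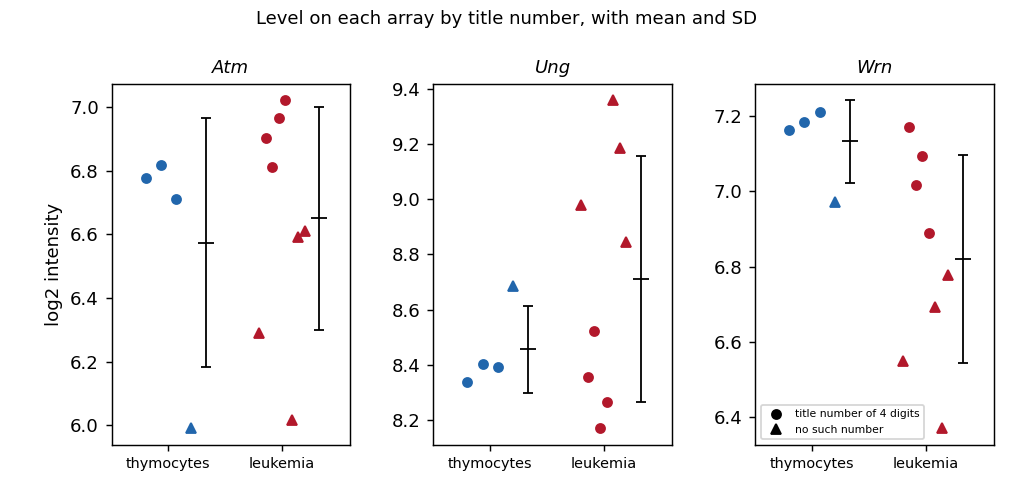
Log2 intensity of Atm, Ung and Wrn on each array by group, with mean and SD; circles are arrays whose title holds a number of 4 digits and triangles the others. Circles and triangles do not overlap for Atm (circles higher) or Ung (triangles higher).

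Other genes of the repair routes were taken from a list of 113 names, of which 52 were measured. Of the 52, 11 fell (21.2%), 0 rose and 41 did not pass. By unadjusted p, 27 of the 52 lay under 0.05, against 2344 of all 8251 genes. The median difference of the 52 was -0.20, against 0.0037 over all genes, and 43 of the 52 values were below 0. Whether the share that fell differs from that of all genes (11.9%) was not tested. Damage signalling held 4 of the 11. H2ax, the histone variant phosphorylated around breaks, fell 2.58-fold, from 10.36 ± 0.15 (SD, n = 4) to 8.995 ± 0.40 (SD, n = 8), with no overlap of groups. Its log2 difference was -1.37 (SE 0.19, adjusted p = 0.000265). Wee1, a kinase that blocks entry into mitosis, fell by 0.56 to near the control level (at least 1.02-fold lower, adjusted p = 0.000685). Rnf8, a ubiquitin ligase at breaks, fell by 0.40 (adjusted p = 0.00413), as did the kinase Chek2 (-0.24, adjusted p = 0.0138).

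In homologous recombination, 2 of 13 measured genes fell (15.4%, near the 11.9% of all genes). Rad21, a subunit of cohesin, fell 1.92-fold, from 9.96 ± 0.075 to 9.02 ± 0.17 (SD, n = 4 and n = 8). Its log2 difference was -0.94 (SE 0.090, adjusted p = 1.42e-05). Rpa3, of the complex that coats single-stranded DNA, fell by 0.78 (adjusted p = 0.00751), while its partners Rpa1 and Rpa2 differed by -0.43, adjusted p = 0.0669, and 0.067, adjusted p = 0.798, and did not pass.

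In base excision 2 of 8 fell (25%, against 11.9% of all genes), the glycosylase Mbd4 (-0.56, adjusted p = 0.00297) and the flap nuclease Fen1 (-0.45, adjusted p = 0.037). In nucleotide excision 2 of 8 fell (25%), Ddb1 (-0.24, adjusted p = 0.0384) and the TFIIH subunit Gtf2h4 (-1.61, adjusted p = 0.0302). Gtf2h4 had its lowest values in leukemias 1, 5 and 7 (7.21, 8.05 and 7.44). Whether the share of any route differs from that of all genes was not tested. Ube2t, the ubiquitin-conjugating enzyme of the Fanconi anemia route, fell by 0.92 to near the control level (at least 1.47-fold lower, adjusted p = 0.0072). None of 3 measured genes of end joining, 6 of translesion synthesis and 1 of mismatch repair passed. Dntt had the largest difference of the list, -1.72 (SE 0.59, adjusted p = 0.0642), with every leukemia below every thymocyte array but a wide spread (9.98 ± 1.33 against 11.70 ± 0.047, SD, n = 8 and n = 4). Its probe set is marked for cross-hybridization, and with marked probe sets left out Dntt was -1.86 (adjusted p = 0.00237) and passed. It also passed without leukemia 1, 2 or 4, at -1.37 (adjusted p = 0.0427), -1.88 (adjusted p = 0.0472) and -1.88 (adjusted p = 0.0409). In all, 12 of the 52 lay below every thymocyte array in every leukemia, against 8.11% of all genes.

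Of the 11 genes that fell, 4 passed with the mitosis score as a covariate and 7 did not. Those that passed were H2ax at -0.53 (adjusted p = 0.0283), Rad21 at -0.98 (adjusted p = 0.00323), Mbd4 at -0.70 (adjusted p = 0.0283) and Wee1 at -0.57 (adjusted p = 0.029). Those that did not were Rpa3 at -0.38 (adjusted p = 0.365), Chek2 at -0.14 (adjusted p = 0.36), Fen1 at -0.28 (adjusted p = 0.426), Ube2t at -0.86 (adjusted p = 0.127), Rnf8 at -0.38 (adjusted p = 0.0967), Gtf2h4 at -2.17 (adjusted p = 0.0884) and Ddb1 at -0.23 (adjusted p = 0.23). The same 4 passed and the same 7 did not with the replication score. Fitted with the macrophage score, Fen1, Ddb1, Gtf2h4 and Chek2 did not pass (adjusted p = 0.111, 0.157, 0.115 and 0.0633).

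Of the 11 genes, 4 lost the call when an array was left out. Fen1 lost it without leukemia 5, 6, 7 or 8 or thymocyte array 1, 2 or 4 (adjusted p up to 0.134). Ddb1 lost it without leukemia 1, 3, 5, 7 or 8 or thymocyte array 1, 2 or 3 (up to 0.137). On all arrays, Ddb1 also did not pass with the mean of its probe sets, at -0.11 (adjusted p = 0.269). The same held with arrays centred on their median (adjusted p = 0.0571) and with trend and robust variance (adjusted p = 0.0519). Gtf2h4 lost it without leukemia 5 or any thymocyte array (up to 0.0859), and Chek2 without thymocyte array 1 (0.0574).

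**Figure D5:**
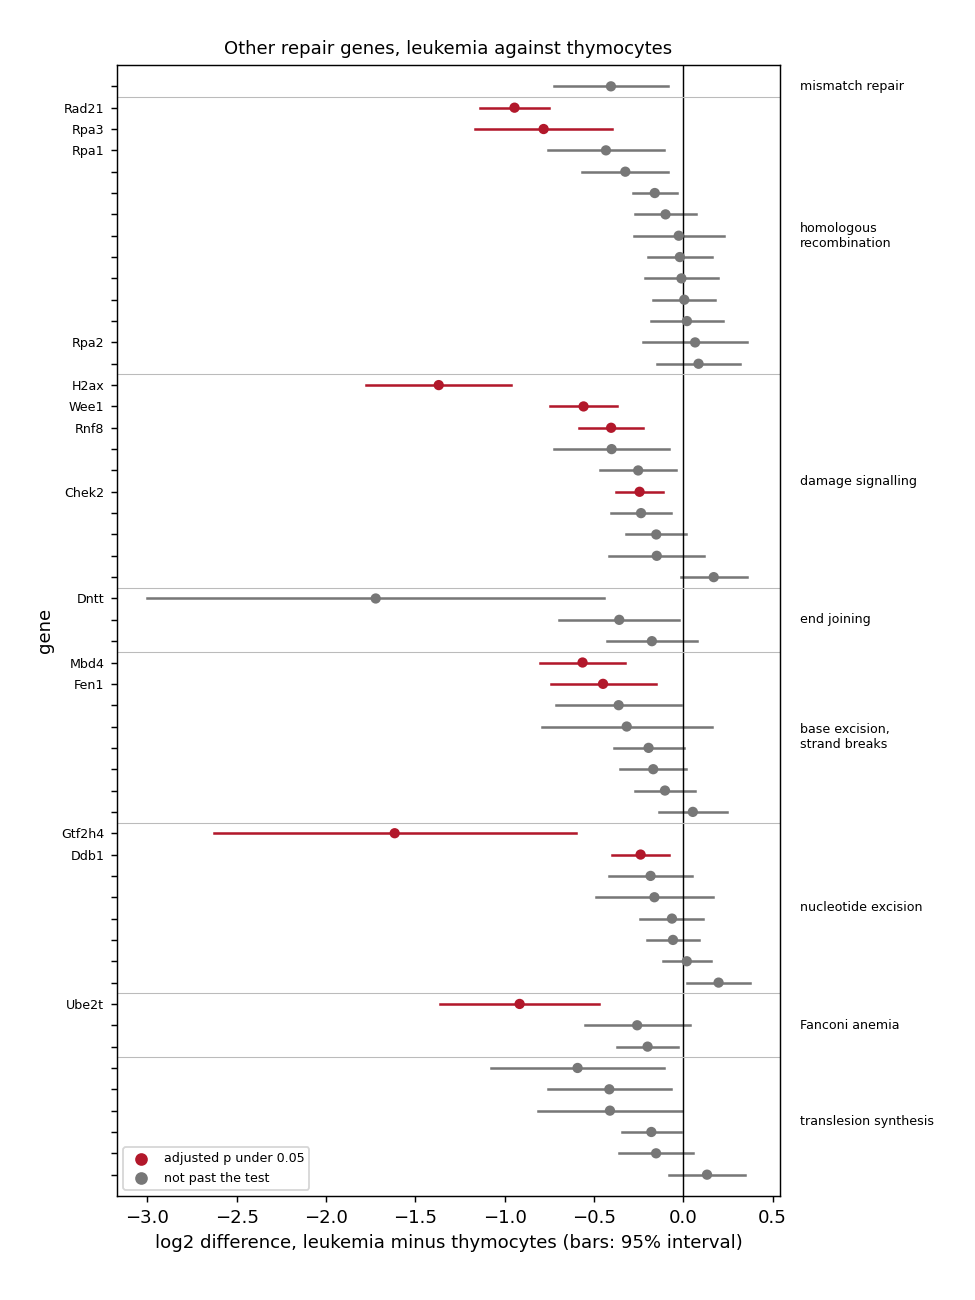
Log2 difference of 52 further repair genes, leukemia (n = 8) minus thymocytes (n = 4), with 95% intervals from limma, by repair route. Red marks an adjusted p under 0.05. Names are given for the genes marked red and for Dntt, Rpa1 and Rpa2. The 11 marked genes all lie below 0, from -1.61 for Gtf2h4 to -0.24 for Ddb1.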

How the data were processed

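The authors deposited linear-scale intensities for each probe set. RMA made them, per the submitters' processing notes. The sources used here do not give its version. All values were above 0, with array medians from 66.5 to 70.2, and were converted to log2 with no offset. No arrays were identical (pairwise correlations 0.955 to 0.997). Of 12488 probe sets, 66 were controls, 10833 had 1 gene, 396 several and 1193 none; symbols were updated through a RefSeq table (10817 matched). The 8251 genes were compared with limma 3.58.1 in R 4.3.3 (lmFit, eBayes, no covariate, two-sided), and every adjusted p over genes or probe sets comes from it. The limma step was tested on simulated data.

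The control level of a group is the mean over its arrays of the 95th percentile of 19 non-mouse control probe sets; a gene is near it where its group mean is lower. "At least" folds take the higher of that percentile and the measured value on each array of the dimmer group.

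Every member is named. Values per array were to be given for those past the threshold and the 4 smallest adjusted p in each direction, and up to 5 other repair genes past the threshold per route and direction; Xrcc6, Dntt, the thymocyte markers that fell and the title-number genes were picked after their values were seen. The members, lists and alternatives were chosen with earlier results of these data known. Alternatives covered normalization, probe set choice, variance model, test, threshold, arrays and covariates.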

Additional observations from a re-analysis of the deposited data

Results flagged for a closer look

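In 66 sets of values (33 members in 2 groups), 8 held an array separated from the rest by a gap larger than Dixon's 95% limit, where chance flags about 1 in 20. The share of such flags over all genes on these arrays was not counted, so the number is not a trait of the members. Of the leukemias, Brca2 was 6.09 in leukemia 1 against 5.58 to 5.78 in the other leukemias, and Ercc3 was 6.14 in leukemia 4 against 5.72 to 5.88. Thymocyte array 4, whose title holds no number of 4 digits, was low for Msh6 (5.91, others 6.31 to 6.33), Rad23b (7.25, others 7.45 to 7.49) and Atm (5.99, others 6.71 to 6.82). Thymocyte array 3 was low for Rad52 (6.47, others 6.63 to 6.64) and Nbn (4.53, others 4.80 to 4.84). Thymocyte array 1 was low for Rad54l (3.93, others 4.13 to 4.15). Nbn and Rad54l lie near the control level.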

How the results depend on the processing

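The reported values were set beside 28 alternatives. Brca1, Chek1 and Ercc2 stayed lower in sign under each alternative that tested them and reversed under none; leaving out 1 array at a time, all 3 kept the call, with differences of -0.70 to -0.62, -0.77 to -0.65 and -0.41 to -0.33. Members that fell numbered 3, with 3 to 4 on leaving out an array, 1 among the brighter genes (18 members tested), 7 with array weights, 0 with limma's treat against a 1.5-fold change and 0 in arrays without a title number of 4 digits. Members that rose numbered 0, with 0 to 1 on leaving out an array, 2 with array weights (Ercc5 and Xpa) and 1 with quantile normalization, in the 7 arrays whose title has a 4-digit number alone, with the title number as a block, with the macrophage score (Ercc5 each time) and with the mitosis score (Ung). All genes changed numbered 1429, with 938 (without thymocyte array 1) to 1618 on leaving out an array, 2636 with array weights, 816 at an adjusted p under 0.01, 102 with treat and 4 in arrays without the title number. Other repair genes that fell numbered 11, with 7 (without thymocyte array 1) to 15 on leaving out an array, 26 with array weights, 7 at an adjusted p under 0.01, 1 with treat, 0 in arrays without the title number, 5 with the mitosis score (Parg among them, which had not passed) and 4 with the replication score; those that rose numbered 0, with 0 on leaving out any array, 1 with array weights and 2 with either score. Lig1 went from -0.32 to 0.69 (adjusted p = 0.0093) and 0.51 (adjusted p = 0.035) with the mitosis and replication scores. The cause of these changes was not tested, except that treat sets a higher bar and that the arrays without the title number hold 1 thymocyte array. Ercc5 with the mean of its probe sets differed by 0.13, and Ung without probe sets marked for cross-hybridization by -0.057. No paired analysis was possible because the labels give the groups no shared replicate numbers. Signal limits Brca1, Rad54l, Nbn, Xpa and Mgmt, whose means lie near the control level in both groups.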
